A study of Mus musculus with 40 samples.

Results

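The response of the liver to phenobarbital (PB) was described from 20 of the 40 arrays of the series, those of 10 control livers and 10 PB livers, chosen by their sample labels. The other 20 arrays hold the kidneys of the same mice and serve here only to show where the liver differs. All mice were male B6C3F1/Crl hybrids of a C57BL/6 and a C3H/He parent. They were 29 to 32 days old on arrival and were kept for 5 days before dosing began. PB mice then drank water with 0.05% (w/v) PB for 28 days, and controls received none. Each liver is 1 mouse and 1 Affymetrix array, no genes were altered, and no animals were pooled. The unit is the MAS5 signal, a linear brightness value per probe set that the authors had scaled to a common level on each array.

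PB is a barbiturate that activates the constitutive androstane receptor (CAR) of the hepatocyte without binding to it, through dephosphorylation downstream of the epidermal growth factor receptor. CAR then enters the nucleus and raises the genes of drug metabolism, the response for which PB is best known in liver. In rodents long treatment also promotes liver tumours. The genes described here are those outside the drug metabolism families, which take in the iron stores, the clock, the acute phase, hormone responses and the housekeeping of the hepatocyte.

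Of 9976 genes tested, 9766 lay outside the drug metabolism families. Among these, 619 were called higher in PB livers and 833 lower at an adjusted p under 0.05, which is 6.34% and 8.53% of them. Over all genes tested the shares were 6.94% higher and 8.51% lower, with a median log2 fold change of -0.02. The list counts below are to be read against these shares over all genes. The 10 PB and 10 control values did not overlap for 132 of the genes outside the families, 91 of them higher and 41 lower. Over all genes tested this held for 1.77%. The tests were made with limma, adjusted by the Benjamini-Hochberg method over all genes tested, and a fold is a ratio of mean signals.

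The livers carried the transcripts of hepatocytes. All 9 hepatocyte markers with a probe set passed the filter, and their summed signal ran from 119670 to 155560 in controls and from 111200 to 153480 in PB livers. Of them Fgb alone was called, 22083 against 18144. A few livers stood apart. Control liver 5 held kidney transcripts, with Kap at 1230 against a median of 9.25 over the controls and a kidney mean of 17571. PB liver 20 held pancreas and fat transcripts, with Ctrb1 at 188 against a PB median of 4.5, and Fabp4 at 872.5 against 204. Control liver 2 was the farthest control for many of the genes below. Fat transcripts were also high in control liver 2, with Fabp4 at 775.6 against a control median of 219.6. Without control liver 5 and PB liver 20, 659 genes were called higher and 792 lower.

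Outside the drug metabolism families the 12 genes with the largest increases were Cnmd, Meg3, Orm3, Dbp, Nebl, Kcnk1, 1700067K01Rik, 9130409I23Rik, Moxd1, Snhg11, Nsl1 and Rian, ranked with each signal under 50 set to 50. Of these 12, 9 had no overlap between the groups, the exceptions being Dbp, Kcnk1 and Moxd1. Meg3 and Rian are long noncoding RNAs made from the maternal copy of 1 imprinted cluster on chromosome 12. Meg3 signal was 179 at the lowest, 236 at the median and 313 at the highest in controls, and 1199, 1515 and 1802 in PB livers. It rose 6.26-fold (log2 fold change 2.66 ± 0.09 SE, adjusted p = 5.29e-16, n = 10 per group, limma). All PB livers therefore lay well above all controls, and 6 of the 7 other Meg3 probe sets tested were also called higher. Rian ran from 18.5 to 33.9 in controls and from 88.5 to 177 in PB livers, at least 3.07-fold higher when the control mean is taken at 50. The 1 other Rian probe set tested was called higher too, while the 1 other probe set of Snhg11 was not called.

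The Meg3 promoter is printed because it holds a cAMP response element in full, and because the gene had the smallest adjusted p of the 12. The sequences here are from RefSeq on GRCm38.p6, 250 bases before to 50 after the gene start, and 15 of the 18 genes looked for had an entry. This one lies at chr12:109540746-109541045 on the plus strand, with the element TGACGTCA in capitals.
Meg3: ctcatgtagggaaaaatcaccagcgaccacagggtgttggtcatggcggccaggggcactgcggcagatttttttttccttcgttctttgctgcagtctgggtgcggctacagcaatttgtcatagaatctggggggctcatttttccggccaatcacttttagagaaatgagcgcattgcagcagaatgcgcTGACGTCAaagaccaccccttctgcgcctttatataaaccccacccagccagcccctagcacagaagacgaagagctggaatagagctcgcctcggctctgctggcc
The element reads the same on both strands, and 1.79% of all 32851 promoters of this length hold it. The second Meg3 entry and the Rian entry have no match. A match is a description of the letters and shows no binding.

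Nebl, which encodes the actin-binding nebulette of the cardiac Z disc, ran from 1.2 to 22.6 in controls and from 173 to 301 in PB livers. With control signal that low only a bound can be given, at least 4.74-fold (adjusted p = 1.61e-09, limma). Kcnk1, a potassium channel that leaks at rest, ran from 35.1 to 237 in controls with a median of 70.4, and from 170 to 663 in PB livers with a median of 317. A single control, liver 10, reached into the PB range. The uncharacterised 9130409I23Rik had a mean signal of 482 ± 147 in controls and 1804 ± 208 in PB livers (SD, n = 10). Nsl1, a subunit of the kinetochore complex that anchors chromosomes to the spindle, ran from 48.5 to 126 in controls and from 233 to 298 in PB livers. Its PB values were also the tighter, with an SD of 19.2 against 27.6. Moxd1, a copper monooxygenase of the dopamine beta-hydroxylase family, was the least stable of the 12, from 14.9 to 1719.5 in controls and from 245 to 2015 in PB livers. Its call (adjusted p = 0.0324) was lost in 6 of the 20 fits that left out 1 liver (0.0525 to 0.0631) and without control liver 5 and PB liver 20 (adjusted p = 0.0601).

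**Figure D1:**
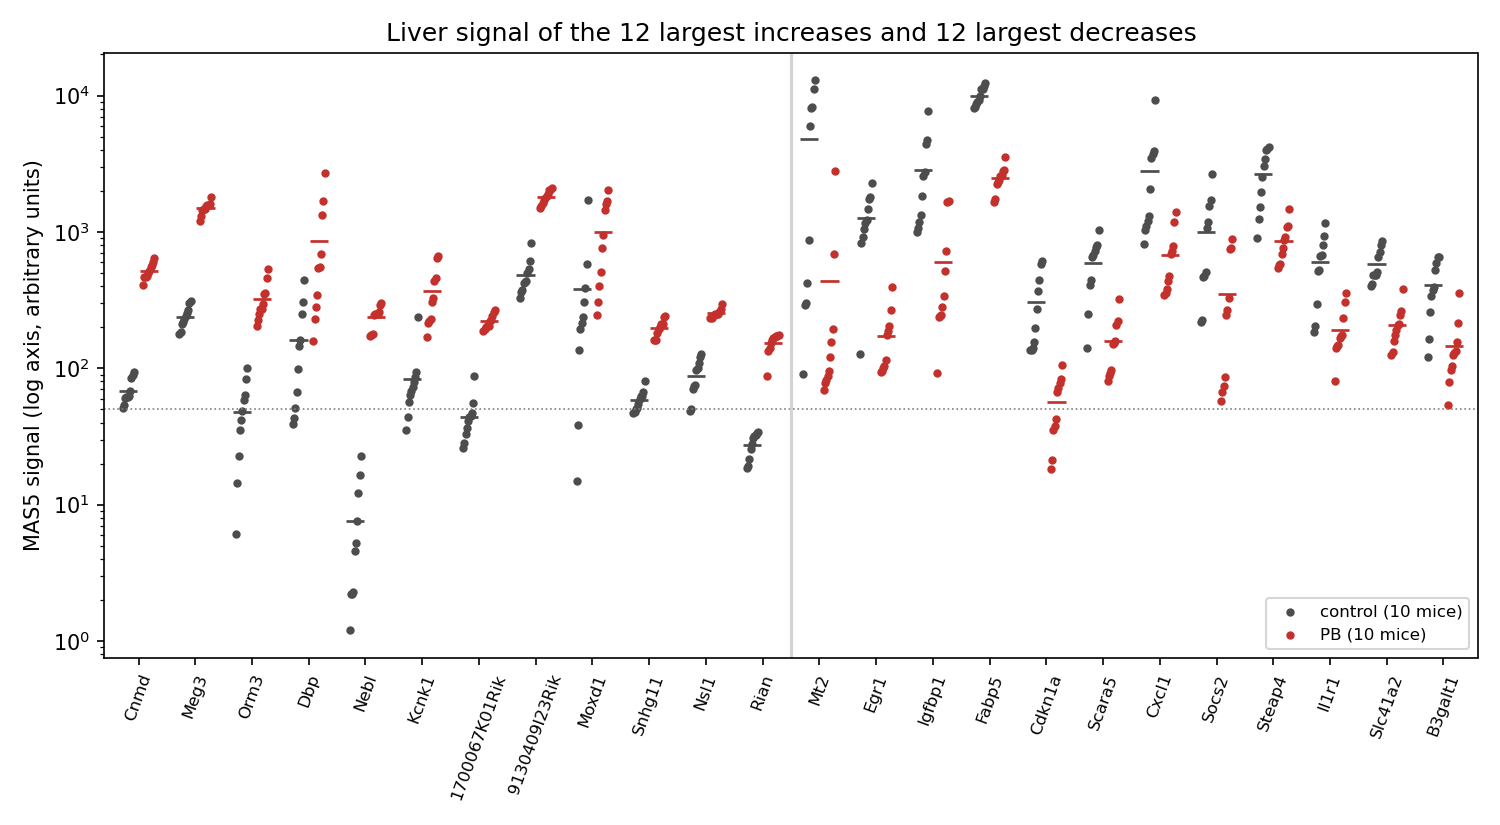
MAS5 signal on a log axis in each of 10 control (grey) and 10 PB (red) livers for the 12 largest increases (left) and the 12 largest decreases (right), with bars at the group means and a dotted line at 50, the mean that a probe set had to reach in either group. The groups are apart for 9 of the increases and 3 of the decreases, and the PB livers span a wide range for Mt2, Igfbp1 and Socs2.

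The 12 largest decreases were Mt2, Egr1, Igfbp1, Fabp5, Cdkn1a, Scara5, Cxcl1, Socs2, Steap4, Il1r1, Slc41a2 and B3galt1. Only Fabp5, Cdkn1a and Slc41a2 had no overlap, and Mt2, Cxcl1, Socs2 and Igfbp1 varied many-fold among control livers. Slc41a2, a magnesium carrier of the plasma membrane, ran from 400.4 to 852 in controls and from 126 to 380 in PB livers, and fell 2.78-fold (adjusted p = 2.29e-06, limma). Scara5, a receptor that takes up ferritin, had a median of 665 in controls and 153 in PB livers, but its 1 other probe set tested was not called. Steap4, a reductase of iron and copper, had medians of 2771 and 817, and 6 PB livers lay under every control. The interleukin 1 receptor Il1r1 had medians of 599.6 and 170, with 7 PB livers under every control. B3galt1, a galactosyltransferase of glycan synthesis, ran from 120.5 to 658 in controls and from 53.4 to 356 in PB livers, and its 4 other probe sets tested were called lower too. Socs2, a feedback inhibitor of growth hormone signalling, lost its call in 9 of the 20 fits that left out 1 liver (adjusted p 0.0554 to 0.0712). Of its 3 other probe sets tested, 1 was called lower.

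Metallothioneins are small proteins that hold zinc and copper, and their genes answer to metals, glucocorticoids and the acute phase. Of 16 metallothionein and zinc carrier genes tested, 5 were called lower and none higher, with a median log2 fold change of -0.20. The share called lower was 31.25%, against 8.51% over all genes. Mt2 fell from 4839 ± 5033 to 438 ± 854 (SD, n = 10), a log2 fold change of -3.26 ± 0.89 SE (adjusted p = 0.0154, limma). Its values varied widely within both groups, and the cause of this spread was not tested. Control livers 2, 3, 4, 8 and 10 lay between 6024 and 12895, and the other 5 controls between 90.1 and 868. PB livers 11 and 12 stood at 689 and 2810, and the remaining 8 between 69.2 and 194. Mt1 had medians of 4142 and 329 and was not called (adjusted p = 0.0646, limma). Without control liver 5 and PB liver 20 its adjusted p was 0.0457, and with Saa2 signal as a covariate its log2 fold change went from -2.32 to -1.23 (adjusted p = 0.137). Slc39a14, which imports zinc and iron, had means of 1214 and 718, and Slc30a10, a manganese exporter, 440.1 and 329. Slc39a4, a zinc importer, ran from 601 to 865 in controls and from 423 to 588 in PB livers, with no overlap.

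The promoters of Mt2 and Mt1, at chr8:94172368-94172667 and chr8:94178839-94179138 on the plus strand of GRCm38.p6, are shown for their metal response element cores, TGCGCNC or TGCACNC on either strand, in capitals.
Mt2: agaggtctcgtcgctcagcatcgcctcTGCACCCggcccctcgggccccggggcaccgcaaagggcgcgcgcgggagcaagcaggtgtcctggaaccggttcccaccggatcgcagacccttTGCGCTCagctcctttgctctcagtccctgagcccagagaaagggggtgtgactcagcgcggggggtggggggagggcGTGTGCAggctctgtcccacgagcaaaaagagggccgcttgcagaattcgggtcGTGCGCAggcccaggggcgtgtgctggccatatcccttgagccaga
Mt1: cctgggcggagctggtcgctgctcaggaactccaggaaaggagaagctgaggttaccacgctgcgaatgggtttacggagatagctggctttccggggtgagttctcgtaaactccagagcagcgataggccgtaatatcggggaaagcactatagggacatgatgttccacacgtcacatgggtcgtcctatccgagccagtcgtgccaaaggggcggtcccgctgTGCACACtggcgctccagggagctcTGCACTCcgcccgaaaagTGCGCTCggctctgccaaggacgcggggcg
The Mt2 window holds 4 cores and the Mt1 window 3. At least 1 core is found in 25.7% of all promoters and 4 or more in 0.517%, so a single core is common in windows of this length.

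Acute phase proteins are made by the liver when interleukin 6 and interleukin 1 signal inflammation, and they divided by gene rather than moving as a block. Of 28 tested, 3 were called higher and 9 lower, against 6.94% and 8.51% over all genes, and the median log2 fold change was -0.21. The 3 that rose were Orm3, Orm2 and Crp. C-reactive protein Crp ran from 6190.5 to 8206 in controls and from 8398 to 9698 in PB livers, a narrow shift with no overlap. The orosomucoid gene Orm2 had medians of 385 and 831 and its highest PB livers were 11 and 12, at 3584 and 7369.8. Among those that fell, Itih2 ran from 5079.9 to 5913 in controls and from 3769 to 4467 in PB livers. Itih3 had means of 9395 and 6626, and Saa4 of 7971 and 4770. Itih2 and Itih3 encode heavy chains of the inter-alpha-trypsin inhibitors, which bind hyaluronan, and Saa4 is the serum amyloid that the liver makes at all times.

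The inducible serum amyloids differed widely among livers of both groups, and the split given here was read from the Saa2 values. Saa2 was at 6848 or more in control livers 2, 3, 4, 8, 9 and 10 and at 5675 or more in PB livers 11, 12, 16 and 18. It lay between 517 and 3262 in the other 4 controls and between 204 and 1127 in the other 6 PB livers. Saa2 was not called between the groups (log2 fold change -1.48 ± 0.93 SE, adjusted p = 0.299, limma), and neither was Saa1 (adjusted p = 0.19) nor Lcn2 (log2 fold change 0.50, adjusted p = 0.765). The high livers were thus found in both groups, and they are the ones with high Mt1 among the PB livers and, with the exception of liver 9, among the controls. With Saa2 signal as a covariate, Mt2 remained called (log2 fold change -2.22, adjusted p = 0.0285), Orm2 rose by 2.19 on the log2 scale (adjusted p = 1.38e-06) and Crp by 0.41 (adjusted p = 7.69e-07). Lcn2 was called higher with it (log2 fold change 1.88, adjusted p = 0.00271). Socs2 was not called, at a log2 fold change of -1.48 (adjusted p = 0.092) against -1.74 without the covariate. Saa2 was itself measured after treatment, so estimates with it as a covariate cannot be separated from a PB effect on Saa2. The labels do not say what set the livers with high Saa2 apart, and an acute phase in them was not tested.

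**Figure D2:**
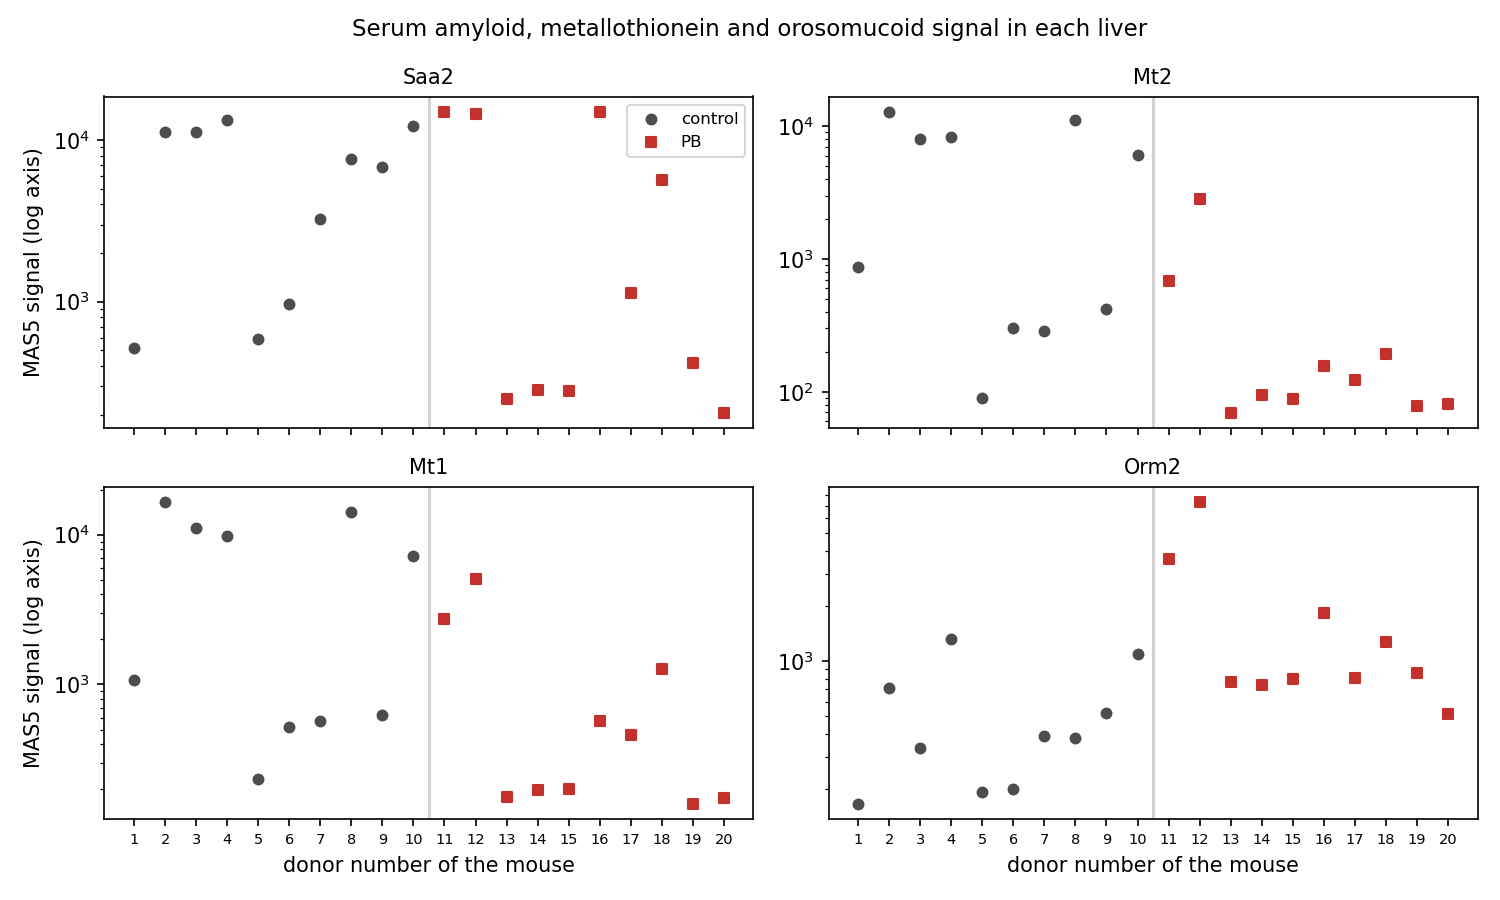
MAS5 signal on a log axis against the donor number of the mouse for Saa2, Mt2, Mt1 and Orm2 in control (grey circles) and PB (red squares) livers. Saa2 is at 5675 or more in 6 controls and 4 PB livers, while Mt2 is at 6024 or more in 5 controls and at most 2810 in PB livers.

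Cytokine signalling genes fell more often than they rose. Of 27 tested, 7 were called lower and 1 higher, the interferon receptor Ifnar2. The shares were 25.9% and 3.70%, against 8.51% and 6.94% over all genes. Beside Socs2 and Il1r1 the largest decreases were in the oncostatin M receptor Osmr, with means of 89.3 and 46.8, and the interleukin 6 receptor Il6ra, with means of 178 and 98.6. Both are receptors through which the hepatocyte senses cytokines of the interleukin 6 family, and 7 PB livers lay under every control for Il6ra. Among 23 complement genes 6 were called lower and 1 higher, 26.1% and 4.35%. C9 and C8b, parts of the pore that complement inserts into membranes, each fell 1.29-fold. Of 27 coagulation genes 5 were called lower and 2 higher, 18.5% and 7.41%. This balance depended on the scaling, with 11 lower and 1 higher after quantile normalization and 3 each way after median centring. Without control liver 5 and PB liver 20 it was 3 lower and 2 higher, and there was no call with all 40 arrays in 1 fit. Antigen presentation genes gave 3 lower and none higher of 14, and interferon response genes 2 lower and 1 higher of 21. The interferon share called lower, 9.52%, was near the 8.51% over all genes.

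Immediate early genes are switched on within minutes by growth factors, stress or tissue handling, without new protein synthesis. Of 24 tested, 6 were called lower in PB livers and none higher, with a median log2 fold change of -0.21. That is 25% called lower, against 8.51% over all genes. Egr1, a zinc finger transcription factor, was 127 in the lowest control, 1194 at the median and 2294 in the highest, and 93.4, 146 and 395 in PB livers. The lowest control, liver 2, lay inside the PB range, and the other 9 controls lay above every PB liver. The fall was 7.28-fold (log2 fold change -2.76 ± 0.38 SE, adjusted p = 2.2e-05, limma). Fos, which forms the AP-1 factor with Jun proteins, had medians of 129 and 43.3, and Dusp1, a phosphatase that turns off MAP kinases, 898 and 351. Btg2, which restrains proliferation, ran from 192 to 330.3 in controls and from 104 to 165 in PB livers with no overlap. Junb and Ier2, the remaining called members, each fell 1.48-fold, and they lost the call in 8 and 15 of the 20 fits that left out 1 liver (adjusted p up to 0.063 and 0.0877). The promoters of Dusp1 and Btg2 hold 1 cAMP response element each, and those of Fos and Junb none.

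Glucocorticoid-responsive genes had the largest share of decreases of all 56 lists. Of 23 tested, 8 were called lower and 1 higher, with a median log2 fold change of -0.47. The shares were 34.8% and 4.35%, against 8.51% and 6.94% over all genes. Mt2, Igfbp1, Cdkn1a and Dusp1 belong to this list as well as to others. Angptl4, an inhibitor of lipoprotein lipase, had means of 744 and 347, and Zbtb16, a zinc finger repressor, 335 and 179. Igfbp1, a binding protein for insulin-like growth factors, ran from 992 to 7724 in controls and from 92.3 to 1693 in PB livers, and 8 PB livers lay under every control. The member that rose was Gadd45b, a growth arrest gene. Serpina6, which encodes the corticosteroid-binding globulin of plasma, is no member of this list. It ran from 906 to 1679.8 in controls and from 2162 to 3823 in PB livers, with no overlap, and rose 2.06-fold (adjusted p = 5.6e-07, limma).

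**Figure D3:**
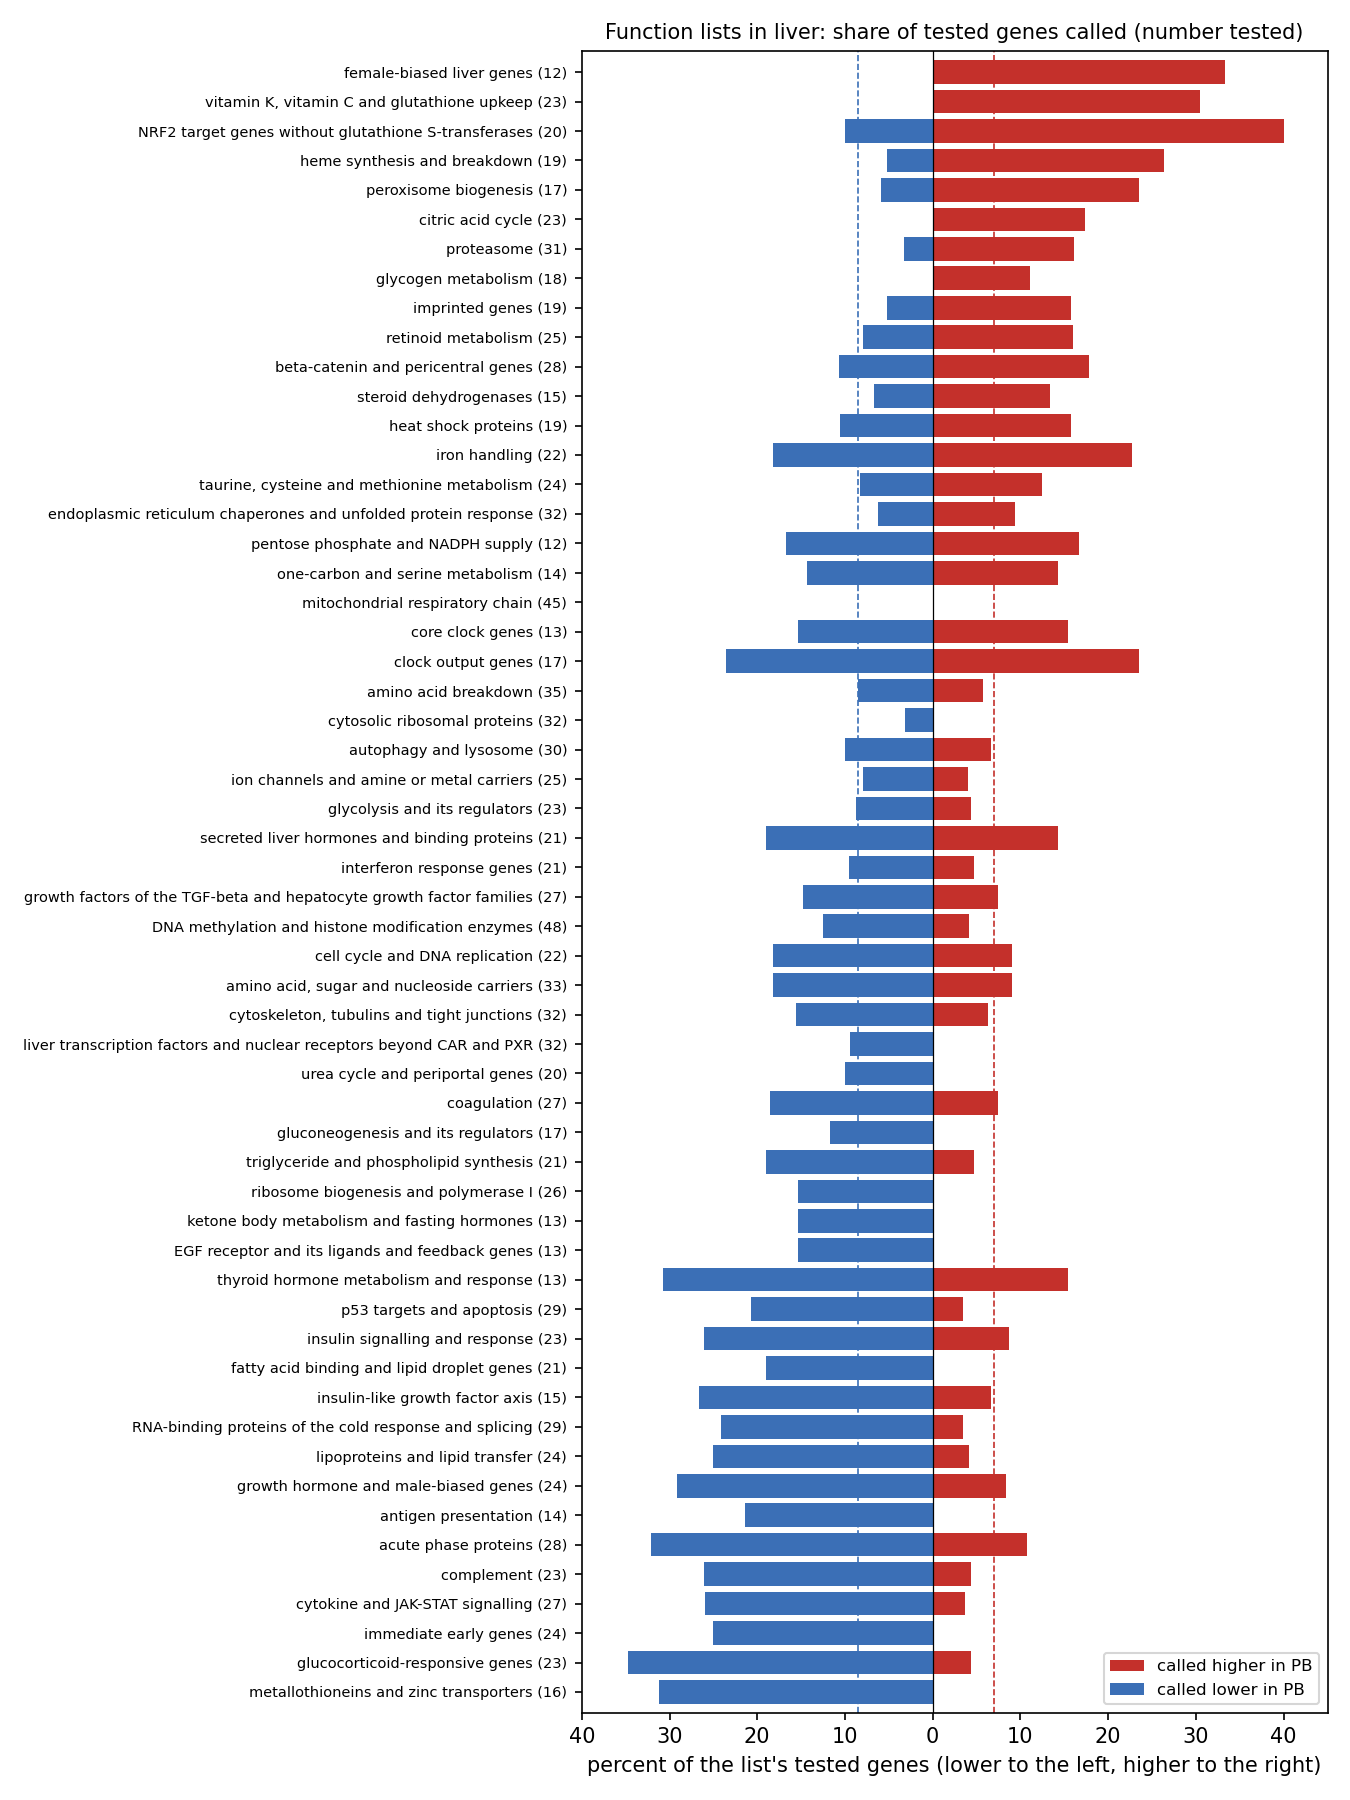
Percent of the tested genes of each of 56 function lists called higher (red, to the right) or lower (blue, to the left) in PB livers, with the number tested in brackets and dashed lines at the shares over all genes, 6.94% higher and 8.51% lower. Metallothioneins, glucocorticoid-responsive genes and immediate early genes have many decreases and no more than 1 increase, and the respiratory chain has no call among 45 genes.

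The hepatic clock is a loop in which Clock and Arntl switch on the Per genes, whose products act back on them, while Dbp, Tef and Nfil3 carry the rhythm to other genes. Of 13 core genes 2 were called higher, Per2 and Per3, and 2 lower, Arntl and Clock, of which 1 was lower without control liver 5 and PB liver 20. Of 17 output genes 4 were called higher, Dbp, Tef, Noct and Alas1, and 4 lower, Nfil3, Lpin1, Cdkn1a and Avpr1a. Dbp ran from 39.0 to 443 in controls with a median of 123, and from 157 to 2699 in PB livers with a median of 547. It rose 5.31-fold (log2 fold change 2.32 ± 0.51 SE, adjusted p = 0.00294, limma). Arntl moved the opposite way, with means of 284 ± 44.6 and 172 ± 43.1 (SD, n = 10), as did Nfil3, with means of 581 and 289. Per2, Per3 and Clock were called at adjusted p of 0.0354, 0.0328 and 0.0398, and lost the call in 10, 8 and 8 of the 20 fits that left out 1 liver (adjusted p up to 0.0681, 0.0633 and 0.0765), as did Avpr1a in 12 (up to 0.0791). With Saa2 signal as a covariate no core gene was called higher and 2 were called lower. Arntl was 1 of them (adjusted p = 0.00208, limma), while Clock was not called (adjusted p = 0.0778, limma).

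Clock gene signal was set against donor number inside each group. Dbp lay between 39.0 and 67.2 in control livers 1 to 4 and between 99.4 and 443 in controls 5 to 10. Across the 10 controls Pearson's r of log2 Dbp with donor number was 0.819 (permutation p = 0.00524, adjusted p = 0.0419) and Spearman's rho 0.806 (permutation p = 0.00704, adjusted p = 0.113). Without the 2 most extreme donor numbers r was 0.665. In PB livers r of Dbp was 0.581 (permutation p = 0.08, adjusted p = 0.183) and fell to 0.143 without them, so the relation there rested on those 2 livers. Per2 gave r = 0.811 among PB livers (permutation p = 0.00383, adjusted p = 0.0419), with rho = 0.697 (permutation p = 0.0298, adjusted p = 0.162), and r = 0.602 without the extremes. These 2 passed the correction with Pearson's r among 16 relations, those of 8 clock genes in both groups, and none passed with Spearman's rho. Controls carry donor numbers 1 to 10 and PB mice 11 to 20, and the labels give no hour of sampling. Donor number and treatment therefore cannot be told apart between the groups. With donor number as a covariate the limma estimates turned sign for Dbp (log2 fold change -0.63, adjusted p = 0.851), Per2 (-0.63, adjusted p = 0.725) and Per3 (-0.06, adjusted p = 0.976). Tef turned too (-0.34), while Arntl (-0.34), Clock (-0.24), Nfil3 (-0.16) and Noct (0.07) kept their sign, all without a call. Genes outside the clock, such as Socs2 and S100a9, also turned. With this nearly collinear covariate 28 of the 131 named genes with a call kept it, so the turn is not particular to the clock.

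**Figure D4:**
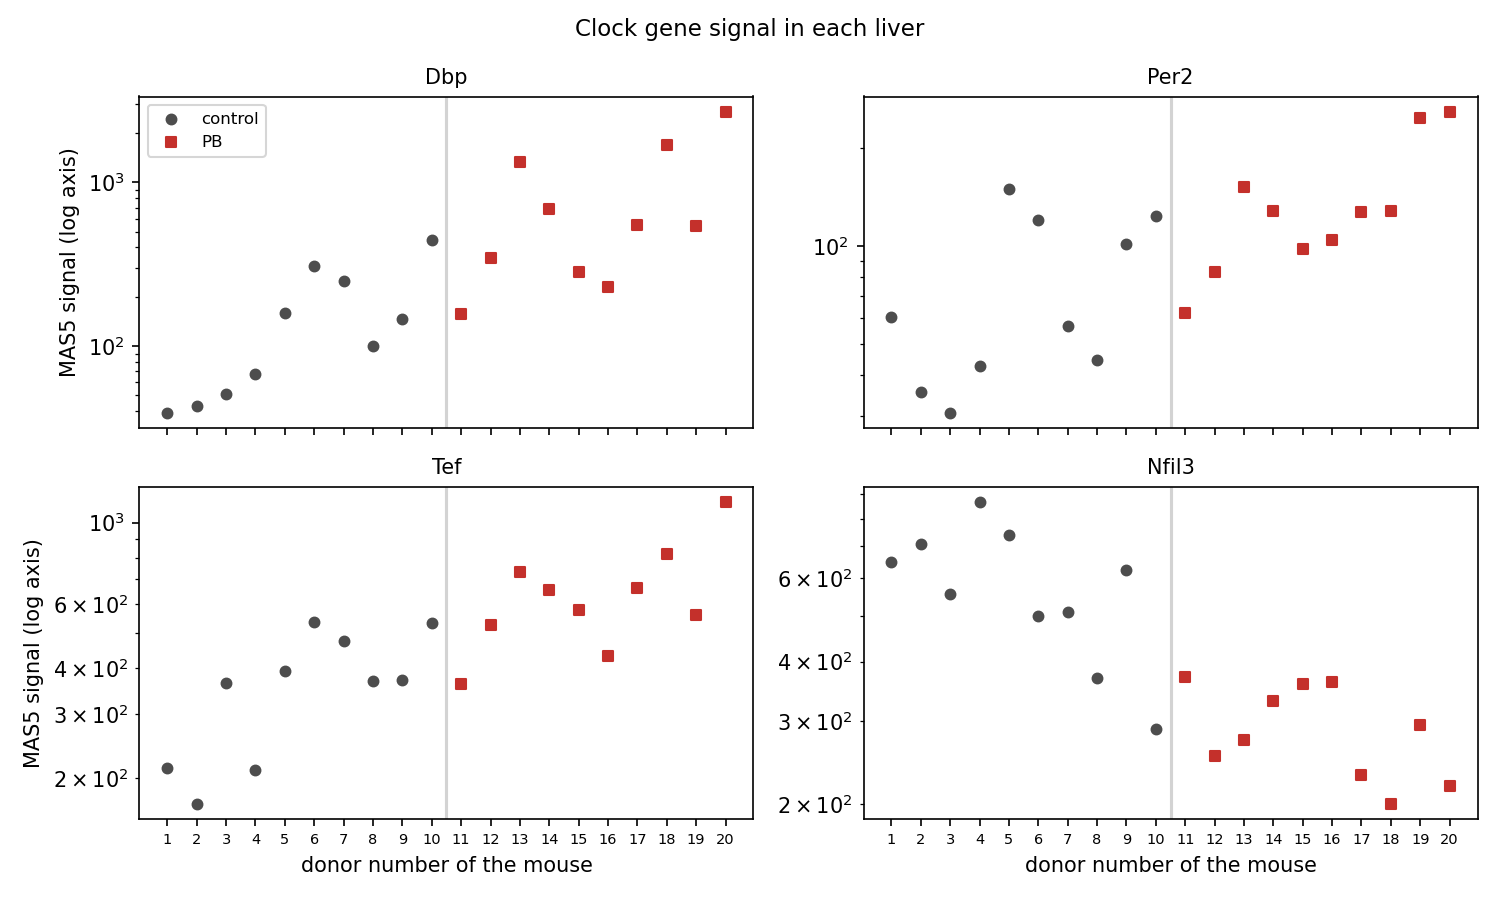
MAS5 signal on a log axis against donor number for Dbp, Per2, Tef and Nfil3 in control (grey circles) and PB (red squares) livers. Dbp runs from 39.0 to 443 in controls and from 157 to 2699 in PB livers, the highest being PB liver 20, and Nfil3 is lower in PB livers, with means of 581 and 289.

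The Per3 promoter, at chr4:151044616-151044915 on the minus strand of GRCm38.p6, is shown for its D-boxes, the element read by Dbp, Tef and Nfil3. Promoters of 7 called clock genes were searched, those of Per3, Dbp, Noct, Tef, Alas1, Arntl and Clock. Among these Per3 alone had D-boxes. Per2 had no entry, and the called genes Nfil3, Lpin1, Cdkn1a and Avpr1a were not searched. The search letters were TTATGTAA and TTACGTAA on either strand, in capitals.
Per3: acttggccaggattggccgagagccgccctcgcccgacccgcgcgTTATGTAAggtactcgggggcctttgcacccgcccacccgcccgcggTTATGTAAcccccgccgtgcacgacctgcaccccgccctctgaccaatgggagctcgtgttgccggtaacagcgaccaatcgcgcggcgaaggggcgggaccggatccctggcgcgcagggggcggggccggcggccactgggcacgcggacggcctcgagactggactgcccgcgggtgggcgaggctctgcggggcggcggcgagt
It holds 2 of them, and 1.06% of all promoters hold at least 1. The E-box CACGTG, read by Clock and Arntl, was found in the Tef promoters alone of these 7 genes, and in 7.15% of all promoters.

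Heme and iron genes moved in several directions. Alas1, the first and rate-setting enzyme of heme synthesis, ran from 419 to 6661 in controls with a median of 1302 and from 1284 to 9358 in PB livers with a median of 4861. Of 19 heme genes 5 were called higher and 1 lower, 26.3% and 5.26%, against 6.94% and 8.51% over all genes. Alas1 lost its call in 5 of the 20 fits that left out 1 liver (adjusted p 0.0502 to 0.0524). The transferrin receptor Tfrc, by which cells take up iron, ran from 352 to 881 in controls and from 940.2 to 1205 in PB livers, with no overlap. Iron handling genes as a list gave 5 higher and 4 lower of 22, a balance that turned to 5 higher and 7 lower after quantile normalization. Its members with the largest decreases were Scara5, Steap4 and Slc39a14, described above.

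Vitamins C and K and glutathione keep the redox state of the hepatocyte. Of 23 genes of vitamin K, vitamin C and glutathione upkeep 7 were called higher and none lower, and 16 were not called. The median log2 fold change was 0.13. The counts stood at 7 and 0 after quantile normalization and median centring. Slc23a1, the vitamin C carrier, ran from 484 to 660.4 in controls and from 638 to 968 in PB livers. Glutaredoxin Glrx had means of 598 and 831, and the quinone reductase Nqo1 67.2 and 102. Nqo1 is also a target of NRF2, the factor that answers to oxidants, and NRF2 targets without the glutathione S-transferases gave 8 higher and 2 lower of 20, with 9 higher and 1 lower without control liver 5 and PB liver 20. Of those 8, Abcc4, Ephx1, Ugdh and Cbr1 belong to the drug metabolism families. Among heat shock proteins Hspa1b rose 2.07-fold, Hspa1a 2.19-fold and Dnajb4 1.47-fold, of 3 higher and 2 lower in 19, which became 3 higher and 4 lower without control liver 5 and PB liver 20. Of 32 endoplasmic reticulum genes 3 were called higher and 2 lower. Their shares, 9.38% and 6.25%, were near the 6.94% and 8.51% over all genes. Those higher included Ddit3 and Trib3 of the stress response, with means of 112 and 194 and of 85.1 and 147.

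The growth hormone axis sets the sex differences of the rodent liver. Among growth hormone and male-biased genes 7 of 24 were called lower and 2 higher, 29.2% and 8.33%, against 8.51% and 6.94% over all genes. Of 27 female-biased genes listed, 12 passed the filter, and 4 of these were called higher and none lower. A gene near background in controls could enter this list only by rising, as Sult1e1, Cyp2b9 and Prom1 did. The female-biased count is therefore no measure of the direction of the list. Igf1, the circulating growth factor made under growth hormone, ran from 6516 to 7692 in controls and from 5012 to 6154 in PB livers, with no overlap. Serpina12, a serine protease inhibitor also called vaspin, ran from 4003 to 5623 and from 2920.0 to 3993, again with no overlap. On the female side Sult1e1, the estrogen sulfotransferase, rose from a median of 12.2 to 146, and Cyp2b9 from 20.0 to 81.9, both from control means under 50 and both in drug metabolism families. Prom1 (prominin 1) rose at least 2.83-fold, also from a control mean under 50. Cux2, a repressor made in female liver, was called with means of 138 and 178, and lost its call in 8 of the 20 fits that left out 1 liver (adjusted p 0.0517 to 0.0617). Egfr, the growth factor receptor named above, fell 1.93-fold, from 6558 ± 1667 to 3392 ± 1212 (SD, n = 10, adjusted p = 0.00108, limma), and 3 PB livers lay under every control. Irs1 and Irs2, the main adapters of the insulin receptor, went opposite ways, from 492 to 729 and from 74.1 to 34.5. Among thyroid genes Dio1, which activates thyroxine, rose 1.58-fold, and Gpd2, a mitochondrial glycerol phosphate dehydrogenase, ran from 839 to 1095 in controls and from 593 to 805 in PB livers.

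Hepatocytes around the central vein, where beta-catenin is active, and those of the portal side use different genes. Of 28 pericentral genes 5 were called higher and 3 lower, with a median log2 fold change of 0.10. Of 20 periportal genes 2 were called lower and none higher, with a median of -0.05. The periportal share called lower, 10%, was near the 8.51% over all genes. The dicarboxylate carrier Slc13a3 ran from 134 to 262 in controls and from 293 to 769 in PB livers, and the secreted protein Lect2 from 1589.9 to 2312 and from 2686 to 4290.2, neither with overlap. Rhbg, an ammonium carrier, rose 1.48-fold. Cyclin D1, Ccnd1, went the other way at 294 and 183. With all 40 arrays in 1 fit the pericentral balance was 2 higher and 3 lower.

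Lipoprotein and lipid transfer genes gave 6 lower and 1 higher of 24, 25% and 4.17%, against 8.51% and 6.94% over all genes. The counts were 10 lower and 1 higher after quantile normalization and 4 lower and 1 higher with Saa2 signal as a covariate. Fatty acid binding and lipid droplet genes gave 4 lower and none higher of 21, and triglyceride and phospholipid synthesis genes 4 lower and 1 higher of 21. Glucose 6-phosphatase, G6pc, which releases glucose from the liver, had means of 2594 and 1436, and gluconeogenesis genes gave 2 lower and none higher of 17. The gluconeogenesis share called lower, 11.8%, was not far from the 8.51% over all genes. Stbd1, which anchors glycogen to membranes, ran from 489.7 to 907 in controls and from 1228 to 1944 in PB livers, and rose 2.23-fold with no overlap (adjusted p = 3.51e-08, limma). Lactate dehydrogenase Ldha fell 1.44-fold, with 9 PB livers under every control. Lpin1, a phosphatidate phosphatase that is also a coactivator, had medians of 802 and 285, and choline kinase Chka means of 533 and 295. Csad, the enzyme that makes the precursor of taurine, had medians of 1396 and 504, and 9 PB livers lay under every control. Of 24 taurine, cysteine and methionine genes 3 were called higher and 2 lower, which turned to 3 and 5 after quantile normalization and to 2 and 3 without control liver 5 and PB liver 20. Retinoid genes gave 4 higher and 2 lower of 25. Cyp26a1, which breaks down retinoic acid, had medians of 217 and 780.2, and the retinoic acid receptor Rarb 44.7 and 87.8. Lrat, which stores retinol as esters in stellate cells, had medians of 101 and 62.9.

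None of 45 respiratory chain genes was called by limma, and 2 had an unadjusted p under 0.05. The methods' t-test on log2 signal called 1. After quantile normalization 3 were called lower. Of 23 citric acid cycle genes 4 were called higher and none lower, with Idh2, Idh3a and Cs between 1.26-fold and 1.39-fold. Of 32 cytosolic ribosomal protein genes 1 was called lower and none higher, a single call that was 1 higher and none lower after median centring. Ribosome biogenesis genes gave 4 lower and none higher of 26, among them Heatr1 and Utp14a, which act in the making of ribosomal RNA, at 1.38-fold and 1.36-fold. Proteasome genes gave 5 higher and 1 lower of 31, 16.1% and 3.23%, against 6.94% and 8.51% over all genes. The 1 that fell, Psmb7, a catalytic subunit, was also the largest change, from 3736 to 4791 in controls to 2558 to 3448 in PB livers with no overlap. RNA-binding proteins of splicing gave 7 lower and 1 higher of 29, 24.1% and 3.45%, and Srsf3 and Srsf6 each fell 1.24-fold. Autophagy and lysosome genes gave 2 higher and 3 lower of 30, 6.67% and 10%, near the 6.94% and 8.51% over all genes. This balance turned to 5 higher and 3 lower with all 40 arrays in 1 fit. It was 4 and 3 with Student's t on linear signal. Of this list the starter kinase Ulk1 and the membrane protein Wipi1 fell, while Atg7 rose 1.33-fold. Wipi1 ran from 284 to 449.7 in controls and from 172 to 273 in PB livers.

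Cell cycle genes and p53 and apoptosis genes were called lower more often than higher. Of 22 cell cycle genes 4 were called lower and 2 higher, among the former Rrm2, Ccnd1 and Mcm4. These shares are 18.2% and 9.09%, against 8.51% and 6.94% over all genes. Of 29 p53 and apoptosis genes 6 were called lower and 1 higher, 20.7% and 3.45%. Casp8, the initiator caspase of death receptors, ran from 428 to 658 in controls and from 311 to 413 in PB livers. Xiap, an inhibitor of caspases, ran from 1115 to 1384 and from 913 to 1066, so that a caspase and an inhibitor of caspases were both lower with no overlap. Of 48 enzymes and readers of DNA methylation and histones 6 were called lower and 2 higher. These shares, 12.5% and 4.17%, were not far from the 8.51% and 6.94% over all genes. Kat2a, a histone acetyltransferase, ran from 126 to 168 in controls and from 232 to 309 in PB livers (log2 fold change 0.93 ± 0.07 SE, adjusted p = 1.15e-09, limma). The deacetylase Hdac11 rose 1.53-fold, and Mbd1, which binds methylated DNA, fell 2.16-fold. The DNA methyltransferase Dnmt3b was called lower and lost the call in 6 of the 20 fits that left out 1 liver (adjusted p 0.0506 to 0.0665). Among 32 liver transcription factors none rose and 3 fell, with Ppard at 74.3 and 33.3 and Foxa3 at 609 and 359.9. The share that fell, 9.38%, was near the 8.51% over all genes.

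Some genes outside every list also had no overlap, and the following were chosen after their values were seen. Gna14, a G protein subunit, ran from 71.3 to 169 in controls and from 212 to 363 in PB livers. Syt1, the calcium sensor of vesicle release, ran from 79.5 to 158 and from 232 to 367. Their mean signal rose by 2.73-fold and 2.58-fold. Slc16a12, a carrier of creatine, Pctp, which moves phosphatidylcholine, Hpgd, which breaks down prostaglandins, and the chemokine Ccl9 rose between 1.99-fold and 2.36-fold. Ptpn2, a phosphatase of JAK-STAT signalling, fell from 538 to 365 and Il13ra1, an interleukin 13 receptor chain, from 349 to 207. Pnp, which splits purine nucleosides, ran from 2873 to 3809 in controls and from 2308 to 2808 in PB livers.

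Of the markers of other liver cells, those of stellate cells and fibroblasts fell in part. In whole tissue, fewer cells of a type and less RNA per cell cannot be told apart. Of 13 stellate cell and fibroblast genes 5 were called lower, Des, Lrat, Pdgfrb, Dcn and Reln, and none higher. Their summed signal ran from 4681 to 5666 in controls and from 3843 to 5099 in PB livers. Of 10 endothelial genes 1 was called lower, Stab2, with means of 525 and 404 and no overlap, and of 11 macrophage genes 1, C1qa. These 2 shares, 10% and 9.09%, were near the 8.51% called lower over all genes. Des, Pdgfrb and C1qa lost their calls in 8, 8 and 9 of the 20 fits that left out 1 liver (adjusted p up to 0.0666, 0.0626 and 0.0686). Ighm, the heavy chain of immunoglobulin M, rose from 379 to 996, and no other of the 3 B and plasma cell genes tested was called. Of 9 neutrophil genes listed only 2 were tested. S100a9 was called lower, with medians of 67.5 and 15.6, and its partner S100a8, with medians of 61.1 and 23.4, was not. Both PB medians lie under 50. The 5 others with a probe set had means under 50 in both groups, so the list says little about neutrophils. The part of these cells in the changes of Lrat and the acute phase genes was not tested.

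Kidney of the same mice was set beside liver. The difference between the PB effect in liver and in kidney passed the test for 1022 of 9976 genes, 10.2%, while the PB effect in kidney alone was called for 153 of these genes. The 24 genes with the largest changes were chosen on their liver values, so their kidney values are given here as a description, without the test of the difference. Of these 24, 10 had a mean kidney signal under 50 in both groups, such as B3galt1 at 2.18 and Cnmd at 4.17 in control mice, where the array gives little measure of a change. The other 14 reached 50 in kidney. Meg3 had kidney means of 68.9 in control and 71.9 in PB mice, and Kcnk1 445.1 and 428.5. Fabp5, a carrier of fatty acids, fell in liver and rose in kidney, by a log2 fold change of 0.76 (adjusted p = 0.000227, limma). Dbp had kidney means of 428 and 1014, a log2 fold change of 1.35 that was not called there (adjusted p = 0.12, limma). Egr1 (-1.01), Socs2 (-0.90), Igfbp1 (-0.82) and Cdkn1a (-0.77) had kidney log2 fold changes of the same sign as in liver, without a call.

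**Figure D5:**
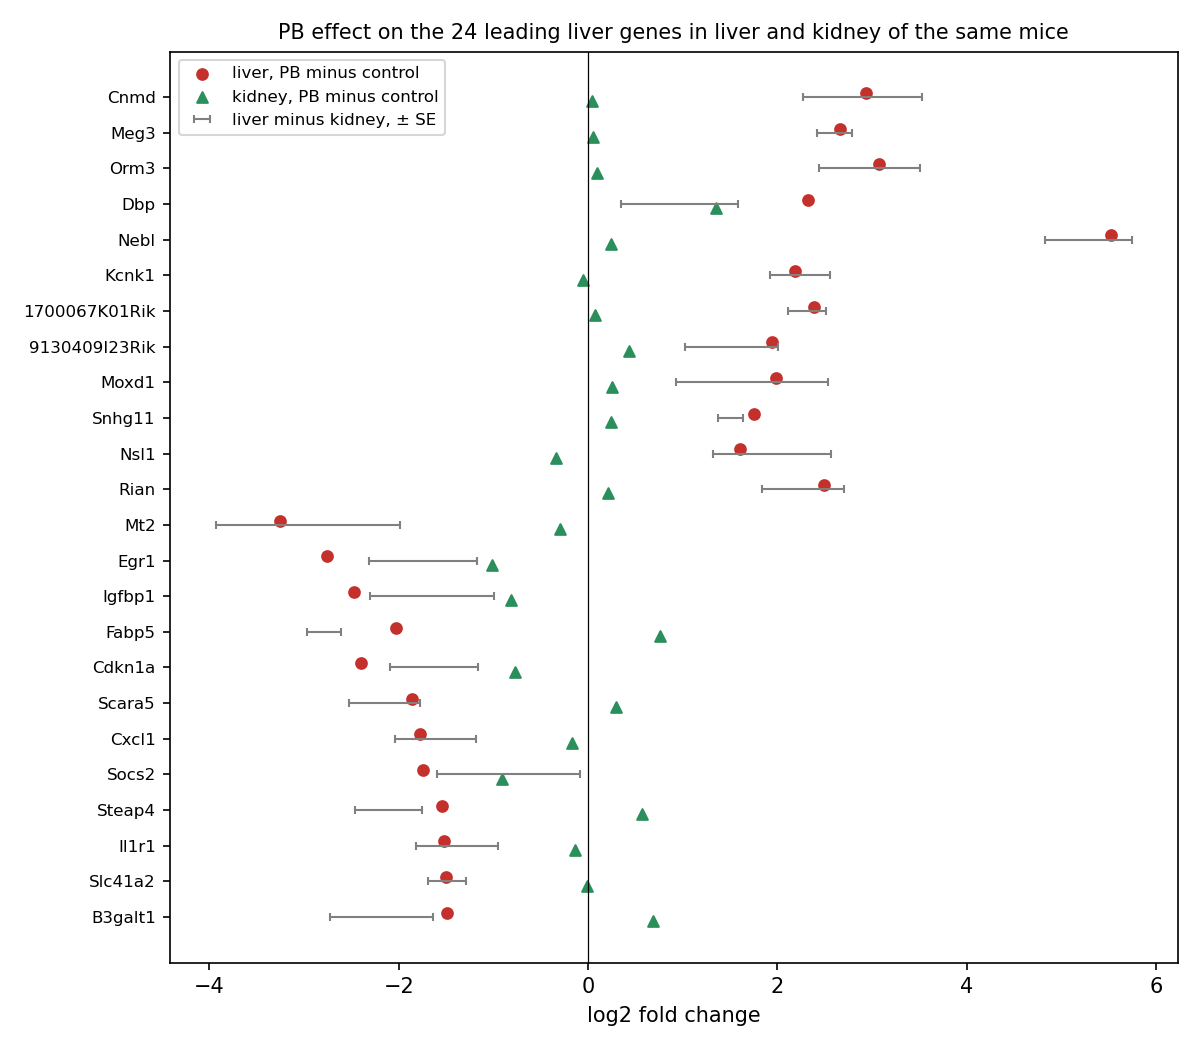
Log2 fold change, PB minus control, of the 24 genes in liver (red circles) and kidney (green triangles), with grey bars for the liver minus kidney difference ± SE. In kidney Dbp lies at 1.35, and Egr1 (-1.01), Socs2 (-0.90), Igfbp1 (-0.82) and Cdkn1a (-0.77) lie on the liver's side of 0, while Fabp5 lies at 0.76, opposite to liver.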

How the data were processed

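Liver arrays were assigned to groups by the treatment and donor in the labels. The authors scanned Affymetrix GeneChip arrays and deposited linear MAS5 signal intensities scaled per array, with GCOS and MAS5 as the tools listed in the submitters' processing notes. Depth does not apply to arrays, and the number of mice limits precision. Of 45037 probe sets, 34945 had 1 gene symbol, 932 several and 9160 none in the platform annotation. Symbols were updated through a RefSeq table. After a floor of 1, intensities were log2-transformed. A filter kept the 18981 probe sets whose mean reached 50 in the PB or the control livers, and the brightest stood for its gene. PB was compared with control by limma (lmFit, eBayes with trend), two-sided, with a call where the adjusted p (Benjamini-Hochberg over all genes tested) was under 0.05, and the code was tested on simulated data. The tissue difference was an interaction over 40 arrays. Folds against a mean under 50 are bounds against 50. Donor relations used 100000 permutations.

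The members and the 56 function lists were chosen with earlier results of these data known. The genes named were the 12 largest changes each way outside the drug metabolism families, up to 4 called members of each list, those with no overlap, and some named after their values were seen. Replicate numbers are the donors, so liver and kidney of a number are 1 mouse. Deviations from the group means correlated between the tissues of a mouse with a median r of 0.0606. Fits ran in R 4.3.3 with limma 3.58.1. Tables and permutations ran in Python 3.11.15 with pandas 2.3.3, NumPy 2.4.6 and SciPy 1.17.1, and plots in matplotlib 3.10.9. The methylation and chromatin data of the study were not analysed here.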

Additional observations from a re-analysis of the deposited data

Results flagged for a closer look

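In 19 of 278 groups of 10 livers, 1 liver stood apart from the others by the gap to its nearest neighbour as a share of the group's range. Chance gives such a gap in about 1 of 20 groups. Control liver 2 accounted for 8 of the 19, with a gap of 0.646 for Egr1, 0.645 for Pdgfrb, 0.639 for Rrm2, 0.615 for Ier2, 0.515 for Heatr1, 0.512 for Il13ra1, 0.477 for Serpina6 and 0.472 for Idh2. PB liver 20 stood apart with a gap of 0.593 for Fabp4, 0.58 for Fos, 0.513 for Fgb and 0.481 for Slc30a10. The other gaps were 0.691 for Cyp2b9 in control liver 8, 0.529 for Egfr in control liver 7, 0.485 for Kcnk1 in control liver 10, 0.601 for Rian in PB liver 15, 0.548 for Ugdh in PB liver 12, 0.533 for Slc39a4 in PB liver 18 and 0.495 for Rhbg in PB liver 17.

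Of the 24 genes with the largest liver changes, 20 are listed here, those with an adjusted p under 0.05 for liver minus kidney (limma). The rule was not size, as Moxd1 (1.73) and Igfbp1 (-1.65) did not pass and are left out with Dbp and Socs2. With the mouse as a fixed replicate block 3 of the 20 did not pass, Egr1, Nsl1 and 9130409I23Rik. All 24 were chosen on the liver change, which favours a difference. In 10 of the 24 the mean kidney signal was under 50 in both groups, so the values are a description. Those of Nebl, Orm3, Cnmd, Rian, Nsl1, 9130409I23Rik, B3galt1, Scara5 and Il1r1 rest on such kidney signal, and for Nebl, Orm3 and Rian the control liver mean is under 50 too. Among the genes that rose in liver, the log2 difference was 5.29 for Nebl, 2.97 for Orm3, 2.90 for Cnmd, 2.61 for Meg3, 2.32 for 1700067K01Rik, 2.27 for Rian, 2.24 for Kcnk1, 1.94 for Nsl1, 1.52 for 9130409I23Rik and 1.51 for Snhg11. Among those that fell it was -2.96 for Mt2, -2.79 for Fabp5, -2.18 for B3galt1, -2.15 for Scara5, -2.11 for Steap4, -1.75 for Egr1, -1.63 for Cdkn1a, -1.61 for Cxcl1, -1.49 for Slc41a2 and -1.38 for Il1r1.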

How the results depend on the processing

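Of the 131 genes named here with a call, 117 kept it in every fit that left out 1 liver, and 88 kept it in all other settings planned. Leaving out 1 liver gave 592 to 767 genes higher and 704 to 918 lower, 967 to 1220 probe sets higher and 1005 to 1317 lower, and 33 to 37 lists with more members lower and 14 to 18 with more higher. The study's thresholds, a fold of 1.5 and p of 0.001, left 289 probe sets higher and 166 lower with limma, and 266 and 135 with the methods' t-test, by construction stricter. Donor number as a covariate, chosen after seeing the data, is nearly collinear with treatment. It left 94 genes higher and 26 lower, 131 probe sets higher and 32 lower, and 5 lists with more members lower and 10 with more higher. With it 28 of the 131 genes kept their call, and the log2 fold change turned sign for Avpr1a (0.0497), Dbp (-0.63), Pdgfrb (0.0352), Per2 (-0.63), Per3 (-0.0648), S100a9 (0.54), Socs2 (0.0816) and Tef (-0.34). Saa2 signal as a covariate and leaving out control liver 5 and PB liver 20, also chosen after seeing the data, kept 119 and 126 of the calls. Without those 2 livers small list counts moved by more than 1.5 times in some lists, such as cell cycle genes from 2 to 1 higher, p53 and apoptosis genes from 1 to 2 higher, autophagy genes from 2 to 1 higher, vitamin and glutathione genes from none to 1 lower and liver transcription factors from none to 1 higher. For the difference between the tissues, 1022 genes passed with no replicate block, 896 with the mouse as a fixed replicate block and 1139 with it as a random one. The cause of these changes was not tested. Signals under 50 lie near the background of the array, where changes are poorly measured.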
